A study of Mus musculus with 70 samples.

Results

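The genes described here are those that build the axoneme, the microtubule core of a motile cilium, in bulk RNA-seq of mouse dorsal hippocampus. They were taken by name: every gene of the table whose symbol begins with Dnah, Dnaic, Dnal, Rsph or Tekt followed by a digit or the letter i, and 10 listed genes, Foxj1, Ccdc39, Ccdc40, Ccdc153, Tmem212, Hydin, Spag6, Spag16, Spag17 and Spef2. The name pattern gave 28 genes and the list 10, which made 38 members of 24346 genes. The rule itself uses no measured value.

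The table holds FPKM, a fragment rate per transcript length and library size, in 70 libraries, 10 in each of 7 groups of adult male C57BL/6J mice. Sedentary mice never ran. Running groups are named by days of initial wheel running, days of sedentary delay and days of reactivating exercise. They are 0-0-2, 14-0-0, 14-14-0, 14-7-2 and 14-7-0. All 6 of these groups had a 3-min subthreshold training in object location memory (OLM), and bilateral dorsal hippocampus was taken 1 h later, whereas home cage mice neither ran nor trained. Each group has 5 libraries from each of 2 harvest cohorts. All mice were housed singly, and wheels had been removed the night before training. The study asks which genes differ after running, with and without a delay, and for the axoneme genes the question is whether their levels follow the exercise groups or follow Ttr, a gene of the choroid plexus, library by library.

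A motile axoneme is a ring of microtubule doublets around a central pair. Outer and inner dynein arms, made of heavy, intermediate and light chains, slide neighbouring doublets. Radial spokes and the central apparatus control the arms, tektins lie in the doublet wall, and Ccdc39 and Ccdc40 form the ruler that sets the axonemal repeat. In the brain such cilia stand on ependymal cells, which line the ventricles, and the epithelium of the choroid plexus, which secretes cerebrospinal fluid and very large amounts of transthyretin (Ttr), also bears tufts of cilia. Neurons of the hippocampus carry a single primary cilium, which lacks these motility parts. The transcription factor Foxj1 turns on motile cilium genes together with factors of the RFX family, which bind X-box motifs in promoters.

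For the promoters, the window from 250 bases before to 50 bases after each gene's start was searched on both strands for GTTGCC, the letters that an X-box holds on each arm, and for TGTTTAC, the core bound by forkhead factors. RefSeq (GRCm38.p6) had an entry for 35 of the 38 members, and none for Rsph1, Rsph4a and Foxj1. GTTGCC was found in 13 of the 35 (37.1%), against 14.1% of the 27025 genes of the promoter table. These were Ccdc153, Dnah10, Dnah7a, Dnah7b, Dnaic2, Hydin, Rsph3b, Spag16, Spag6, Spef2, Tekt1, Tekt2 and Tekt4. TGTTTAC was found in 2 of the 35 (5.71%), Dnah17 and Tekt3, against 4.05% of all genes. A match of letters is a description of the window only. The 250 bases before the start are shown for 3 members that the results below turn on, with GTTGCC or its reverse complement in capitals. Spag16, the member with the steepest relation to Ttr, lies downstream of chr1:69826720-69826969 on the plus strand and has a match on each strand, beginning 111 and 103 bases before the start. Ccdc153, at chr9:44240427-44240676 on the plus strand, has 1 match beginning 152 bases before the start. Tmem212, at chr3:27896369-27896618 on the minus strand, has 0 matches in these 250 bases.
Spag16: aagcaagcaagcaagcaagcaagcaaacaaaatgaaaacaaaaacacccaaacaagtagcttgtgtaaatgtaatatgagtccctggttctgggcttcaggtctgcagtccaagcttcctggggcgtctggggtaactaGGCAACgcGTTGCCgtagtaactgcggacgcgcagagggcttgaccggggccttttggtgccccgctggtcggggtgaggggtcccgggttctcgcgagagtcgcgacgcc
Ccdc153: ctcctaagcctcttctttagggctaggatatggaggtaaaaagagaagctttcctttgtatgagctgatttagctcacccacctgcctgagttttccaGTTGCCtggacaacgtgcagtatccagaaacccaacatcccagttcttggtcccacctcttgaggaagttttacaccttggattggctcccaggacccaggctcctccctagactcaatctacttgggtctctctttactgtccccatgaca
Tmem212: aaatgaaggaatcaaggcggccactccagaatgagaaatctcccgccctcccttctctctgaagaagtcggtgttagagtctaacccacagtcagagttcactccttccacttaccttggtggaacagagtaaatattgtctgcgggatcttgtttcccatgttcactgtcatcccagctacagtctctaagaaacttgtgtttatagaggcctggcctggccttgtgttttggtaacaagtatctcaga

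All 38 members were found in the mm10 annotation (GENCODE vM21), on 16 chromosomes. Foxj1 lies at chr11:116330704-116335399, Rsph1 at chr17:31255019-31277383, Dnah6 at chr6:73017606-73221651 and Dnali1 at chr4:125055338-125065703, all on the minus strand. The gene Spag16 spans chr1:69826970-70725132 on the plus strand. No strand is stated for the library kit, and 18 members share exon bases with a gene of the opposite strand, so reads from such a pair cannot be told apart. Among these are Dnah6, which shares bases with the antisense gene Gm20560, and Dnali1, which shares bases with Gnl2. Dnal1, Ccdc39 and Dnaic1 are also among them, sharing bases with the protein-coding genes Pnma1, Ttc14 and Enho. Dnah7a with Dnah7b and Rsph3a with Rsph3b are near-identical copies, and their split of reads is uncertain, as is that of Spag6 and its copy Spag6l, which the name rule leaves out.

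In the dorsal hippocampus, 17 of 38 members had means of at least 1 FPKM, beside 12994 of all 24346 genes. Highest were Dnal4, a dynein light chain, with a mean of 35.1 FPKM over 70 libraries, and Dnal1, a light chain of the outer arm, with 29.1 FPKM. Over single libraries they ran from 15.3 to 50.4 FPKM and from 19.8 to 36.5 FPKM. Rsph9, a protein of the spoke head, followed with 13.1 FPKM. Next came Tmem212 at 5.52 FPKM, a membrane protein gene used as an ependymal marker, then Ccdc39 and Rsph1 at 5.04 FPKM each, Ccdc153 at 4.31 FPKM and Foxj1 at 4.05 FPKM. The 11 dynein heavy chains, the motors of the arms, had means from 0.0567 FPKM (Dnah17) to 2.26 FPKM (Dnah9). Of the central apparatus, Spag6 was highest at 3.70 FPKM and Spag17 lowest at 0.152 FPKM, with Spag16 at 0.985 FPKM, Spef2 at 0.792 FPKM and Hydin at 0.208 FPKM between them. Tektins ran from Tekt5 at 3.34 FPKM to Tekt3 at 0.0722 FPKM. Since FPKM are scaled to transcript length, levels may be set side by side between genes. This is less sure for members that share exon bases with an opposite-strand gene, such as Dnal1 and Ccdc39.

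**Figure D1:**
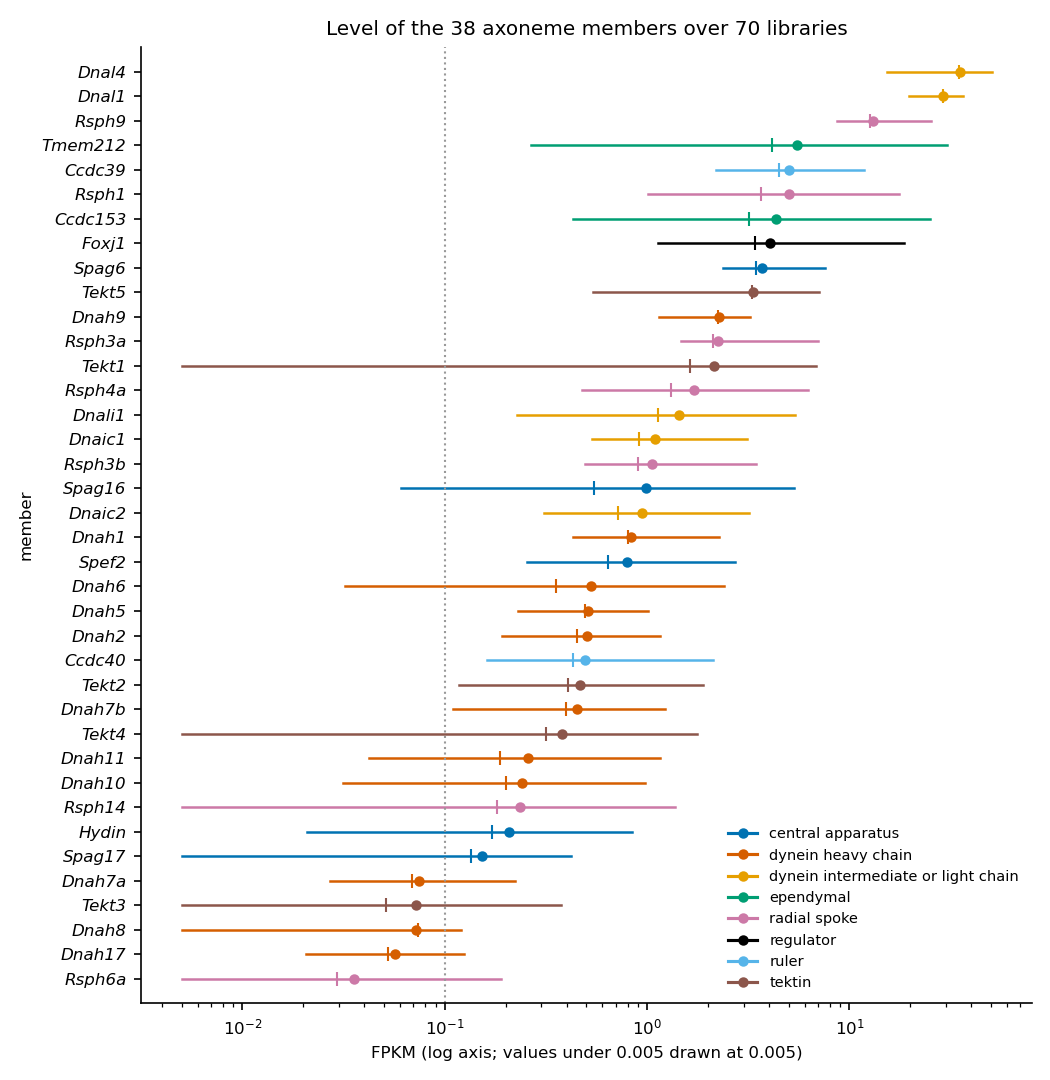
Level of each of the 38 members over 70 libraries, in FPKM on a log axis (point, mean; tick, median; line, lowest to highest library; colour, part of the axoneme; dotted line, the minimum mean of 0.1 FPKM for testing). Dnal4, Dnal1 and Rsph9 lie at the top with short ranges, whereas Tmem212 and Ccdc153 span from under 0.5 FPKM to 30.4 and 24.9 FPKM.

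Members were tested if their mean over all libraries was at least 0.1 FPKM, and 33 of 38 were, beside 16083 of all 24346 genes. The 5 not tested are Dnah7a, Tekt3, Dnah8, Dnah17 and Rsph6a, whose means lay between 0.0358 and 0.0749 FPKM. Of these, Rsph6a, a spoke protein known from sperm, was listed at 0 in 17 libraries and Tekt3 in 10. Every one of 31 members was above 0 in all 70 libraries. Tekt1, a tektin with a mean of 2.13 FPKM, was listed at 0 in 1 library.

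A few libraries stand apart and touch the results. Sedentary replicate 6 had 2.45 FPKM of Neurod6 and 17.1 FPKM of Slc17a7, genes of excitatory forebrain neurons, where the next lowest libraries had 78.4 and 367 FPKM. Its sum over 6 thalamus genes was 315 FPKM against a median of 33.4 over all libraries. Among these, Prkcd was at 90.9 FPKM (median 15.2 FPKM) and Tcf7l2 at 2.04 FPKM (median 1.11 FPKM). Sedentary replicate 6 also had the highest sum over 18 ependyma genes that are not members (923 FPKM, median of all libraries 430 FPKM). That list includes genes shared with astrocytes, and 0-0-2 replicate 8, only 46th of 70 libraries in Tmem212, reached 872 FPKM. The paper lists total reads under sequencing names that are not linked to these libraries, so the depth of each is not known here. The step between low values gave a relative depth, which was lowest in 14-7-0 replicate 4 (0.0365, next lowest 0.347). That library had 10279 genes at 0, against 6243 to 7199 in the others. In bulk tissue, fewer cells of a type and less RNA per cell cannot be told apart, for any of the values that follow.

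Ttr itself differed by orders of magnitude between mice of the same group. In sedentary mice it ran from 15.5 to 344 FPKM with a median of 74.4 FPKM, and in 14-0-0 from 25.6 to 15643 FPKM with a median of 2225 FPKM. In 14-14-0 it ran from 32.2 to 21244 FPKM with a median of 2040 FPKM. The medians of the other groups lay between 72.4 FPKM in 14-7-0 and 112 FPKM in home cage, with highest libraries of 2085 FPKM in 14-7-0, 2198 FPKM in 14-7-2, 10651 FPKM in 0-0-2 and 15187 FPKM in home cage. Ranges overlapped between all groups. By limma's moderated test (two-sided, on log2(FPKM + 0.1), 10 against 10 libraries), Ttr was higher than in sedentary mice by 3.80 log2 units in 14-0-0 (SE 1.10, p = 0.00244, adjusted p = 0.264) and by 3.57 log2 units in 14-14-0 (SE 1.24, p = 0.00909, adjusted p = 0.741). In home cage it was higher by 2.38 log2 units (SE 0.963, p = 0.0222, adjusted p = 1). In 14-7-0, 14-7-2 and 0-0-2 the differences were 0.66, 1.30 and 1.15 log2 units, and none was called. Genes were called here and below where the unadjusted p was under 0.05, with Benjamini-Hochberg adjustment over all 16083 genes tested.

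Members of the axoneme differed in how they followed Ttr. Spag16, a protein of the central apparatus, had 0.0610 to 1.37 FPKM in sedentary libraries (median 0.424 FPKM), 0.201 to 3.49 FPKM in 14-0-0 (median 1.10 FPKM) and 0.393 to 5.33 FPKM in 14-14-0 (median 1.24 FPKM). In home cage it had 0.222 to 2.59 FPKM (median 0.589 FPKM), in 14-7-0 0.137 to 1.98 FPKM (median 0.47 FPKM), in 14-7-2 0.198 to 2.21 FPKM (median 0.463 FPKM) and in 0-0-2 0.129 to 3.04 FPKM (median 0.502 FPKM). Its ranges overlapped between all groups. In home cage, 14-0-0, 14-7-2, 14-14-0 and 0-0-2 the library highest in Spag16 was the one highest in Ttr.

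Foxj1 had 1.13 to 18.5 FPKM in sedentary libraries (median 3.34 FPKM), 1.96 to 9.55 FPKM in 14-0-0 (median 3.59 FPKM) and 2.96 to 12.1 FPKM in 14-14-0 (median 4.78 FPKM). In the other groups it had 1.70 to 7.68 FPKM in home cage (median 3.71 FPKM), 1.45 to 6.48 FPKM in 14-7-0 (median 3.19 FPKM), 1.24 to 5.76 FPKM in 14-7-2 (median 2.93 FPKM) and 1.55 to 7.06 FPKM in 0-0-2 (median 3.34 FPKM). The medians of Foxj1 thus lay within a narrow band, and all groups overlapped. Its highest library of all, sedentary replicate 6, had 101.25 FPKM of Ttr.

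Tmem212 and Ccdc153 are the ependymal markers among the members. Tmem212 had 0.268 to 30.4 FPKM in sedentary libraries (median 5.48 FPKM), 0.573 to 12.6 FPKM in home cage (median 4.38 FPKM), 2.72 to 7.66 FPKM in 14-0-0 (median 3.82 FPKM) and 0.435 to 13.6 FPKM in 14-7-0 (median 4.31 FPKM). In 14-7-2 it had 0.696 to 8.67 FPKM (median 4.08 FPKM), in 14-14-0 2.26 to 21.9 FPKM (median 5.66 FPKM) and in 0-0-2 1.59 to 12.4 FPKM (median 3.18 FPKM). Its lowest home cage value, 0.573 FPKM, was in home cage replicate 3, which had the highest Ttr of that group. Ccdc153, a coiled-coil protein of motile cilia, had 0.566 to 24.9 FPKM in sedentary libraries (median 4.39 FPKM), 0.780 to 9.19 FPKM in home cage (median 2.53 FPKM) and 2.08 to 17.3 FPKM in 14-14-0 (median 3.38 FPKM). Both were highest in sedentary replicate 6 and next highest in 14-14-0 replicate 3.

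**Figure D2:**
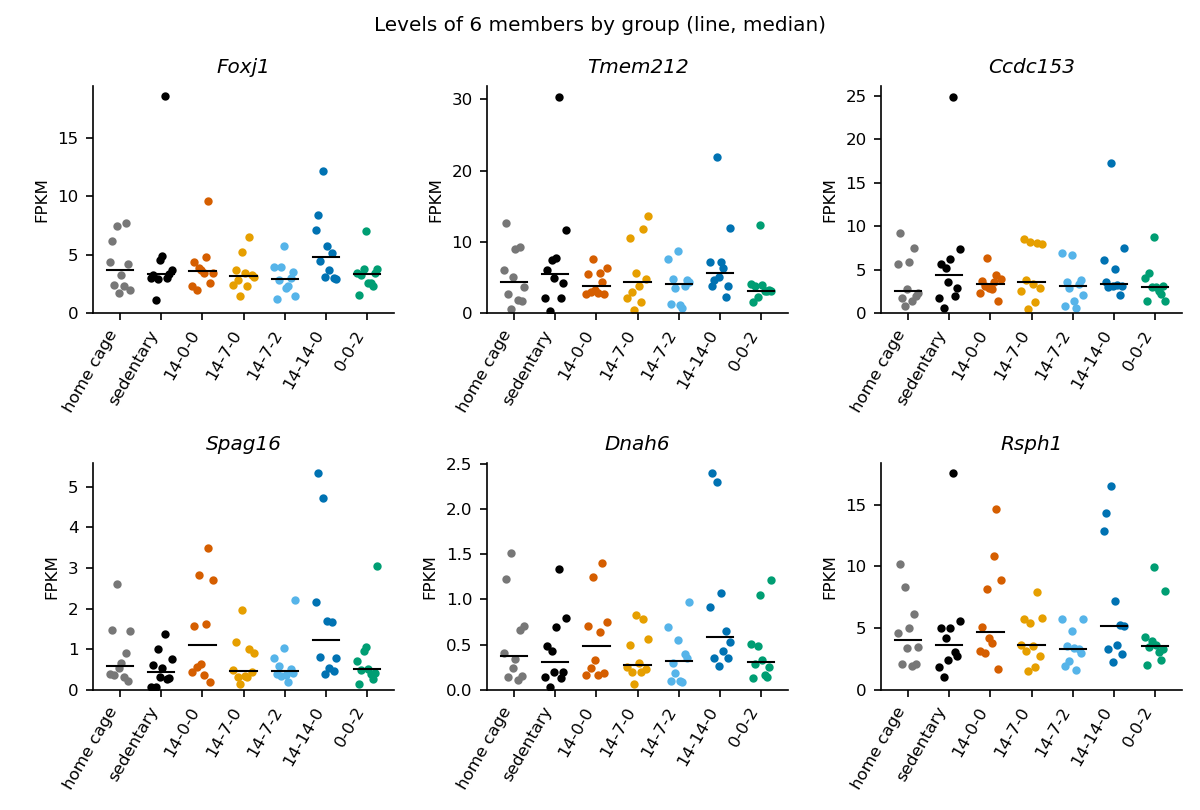
FPKM of 6 members in each of the 7 groups (points, libraries in replicate order; line, group median; linear axes from 0). Groups overlap in every panel, the sedentary library at the top in Foxj1, Tmem212, Ccdc153 and Rsph1 is replicate 6, and the highest Spag16 values, 5.33 and 4.72 FPKM, are in 14-14-0.

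Single libraries show both patterns side by side. In 14-14-0 replicate 1, with 21244 FPKM of Ttr, Spag16 was at 5.33 FPKM, Dnah6 at 2.40 FPKM and Rsph1 at 14.3 FPKM, while Tmem212 was at 3.88 FPKM and Ccdc153 at 3.56 FPKM, beside medians of 4.13 and 3.18 FPKM over all libraries. In home cage replicate 3, with 15187 FPKM of Ttr, Spag16 was at 2.59 FPKM and Ccdc153 at 0.780 FPKM. In sedentary replicate 6, with 101.25 FPKM of Ttr, Tmem212 was at 30.4 FPKM, Ccdc153 at 24.9 FPKM and Rsph1 at 17.6 FPKM. Spag16 at 1.37 FPKM and Dnah6 at 1.34 FPKM were lower there than in 14-14-0 replicate 1. Both were still above every other sedentary library (highest 0.995 and 0.790 FPKM). In 14-14-0 replicate 3 both sets were high, with 11592 FPKM of Ttr, 4.72 FPKM of Spag16, 21.9 FPKM of Tmem212 and 12.1 FPKM of Foxj1. Among the 33 tested members, 10 had their highest value of all 70 libraries in sedentary replicate 6, 8 in 14-14-0 replicate 3 and 6 in 14-14-0 replicate 1. Another 3, Rsph3a, Rsph3b and Dnaic2, were highest in 14-7-0 replicate 4, whose depth was by far the lowest. The 6 of 14-14-0 replicate 1 were Spag16, Spef2, Dnah6, Dnah7b, Dnah9 and Dnah11.

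**Figure D3:**
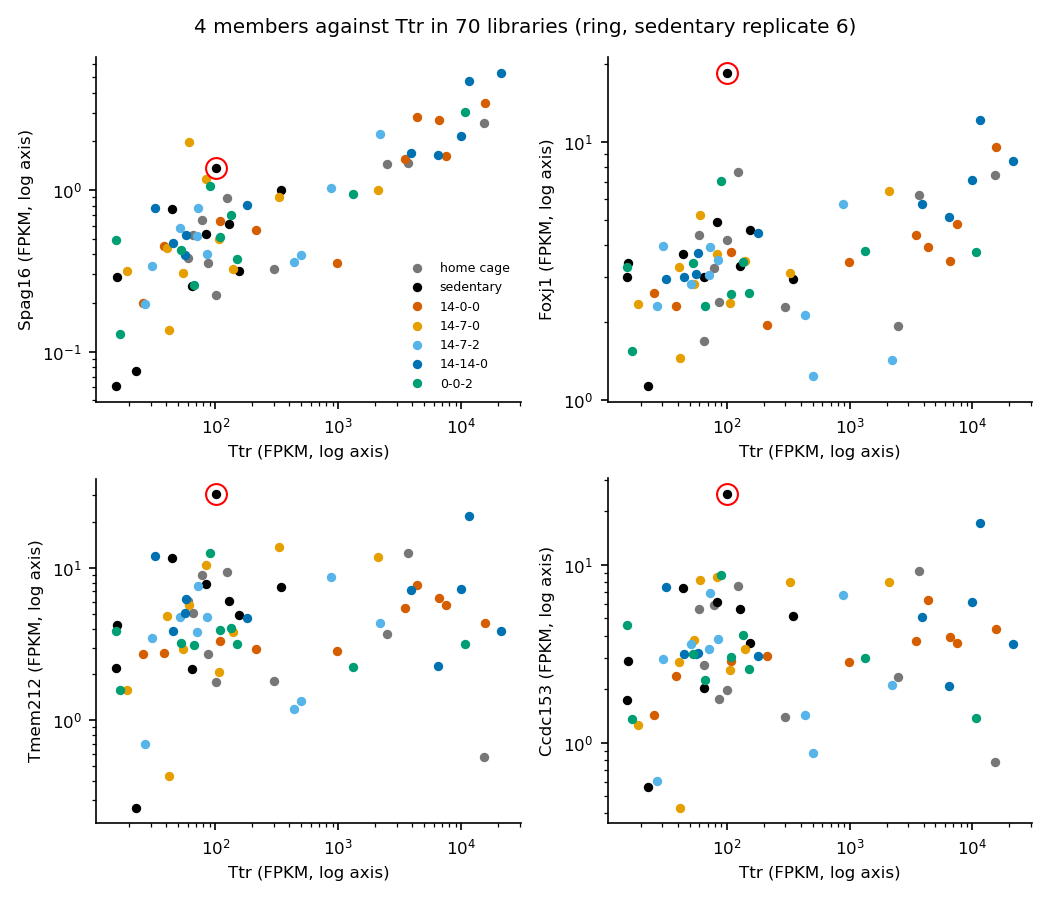
Spag16, Foxj1, Tmem212 and Ccdc153 against Ttr in the 70 libraries, both in FPKM on log axes (colour, group; ring, sedentary replicate 6). Spag16 rises along Ttr to 5.33 FPKM at 21244 FPKM of Ttr, and the ringed library, at 101.25 FPKM of Ttr, holds the highest value in the other 3 panels.

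The slope of each member's log2 value on log2 Ttr within groups was then fitted over all 70 libraries. Of 33 members, 21 had a positive slope at an unadjusted p under 0.05 and 1 a negative one (Dnal4, -0.04 log2 units per log2 unit of Ttr, SE 0.0106). Among all 16082 genes tested, 15.6% had a positive slope by the same rule. The median slope of the members was 0.07 log2 units per log2 unit, against -0.00097 for all genes. All 22 called members but Rsph14 also had an adjusted p under 0.05. The 21 genes of a choroid plexus list other than Ttr had a median slope of 0.66, and all 21 were called, so even the steepest member fell short of that median. Slopes of the list ran from 0.13 to 0.89, so the steeper members, from Spef2 at 0.16 to Spag16 at 0.30, lay within its range.

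By part of the axoneme, the central apparatus followed Ttr in all 5 members, led by Spag16 with a slope of 0.30 (SE 0.0291, adjusted p = 1.18e-13) and Spef2 with 0.16 (SE 0.0203). Dynein heavy chains were called in 5 of 8, from Dnah6 at 0.23 (SE 0.0317) and Dnah11 at 0.19 (SE 0.0231) to Dnah9 at 0.03 (SE 0.0120). Radial spoke proteins were called in 4 of 6, Rsph1 at 0.21 (SE 0.0282), Rsph4a at 0.18 (SE 0.0254), Rsph14 at 0.07 and Rsph9 at 0.06 log2 units per log2 unit. Of the smaller dynein chains 3 of 5 were called, with Dnali1, a light chain tied to inner arms, at 0.17 (SE 0.0326). Tektins were called in 2 of 4, with Tekt1 at 0.20 (SE 0.0319) and Tekt2 at 0.07 (SE 0.0245). Foxj1 had a slope of 0.11 (SE 0.0283, adjusted p = 0.00216). The ruler proteins parted, Ccdc39 being called at 0.07 (SE 0.0194) and Ccdc40 not, at 0.04 (SE 0.0255). Neither Tmem212 at 0.07 (SE 0.0518) nor Ccdc153 at 0.06 (SE 0.0466) was called.

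A straight line of FPKM on Ttr FPKM was also fitted over the 70 libraries, and its value at zero Ttr was taken as a share of each gene's mean. For the 33 members that share had a median of 91.4% and ran from 57.1% (Spag16, SE 6.39) to 102% (Rsph3b). Next lowest were Dnah6 at 67.0% (SE 7.27), Dnah11 at 69.04% (SE 6.70), Tekt1 at 74.3% (SE 5.28) and Rsph1 at 76.8% (SE 6.67). Foxj1 stood at 85.9% (SE 7.67), Ccdc153 at 97.5% (SE 11.4) and Tmem212 at 97.7% (SE 11.6). The 21 choroid plexus genes had a median of 12.6%, with 3.94% for the water channel Aqp1 and 7.75% for the folate receptor Folr1, up to 81.1% for Slco1c1, which is also made by brain endothelium. For every 1000 FPKM of Ttr the line rose by 0.218 FPKM for Spag16, 0.604 FPKM for Rsph1 and 0.0652 FPKM for Tmem212. These shares describe the line only.

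The slope on log2 Tmem212, with Ttr and group in the same fit, was added after the values had been seen. It was positive and called in 24 of the other 32 members and negative in 1, Tekt5 (-0.17, SE 0.0681, adjusted p = 0.0775), with 13.2% of 16081 genes positive by the same rule. The steepest slope was that of Ccdc153 (0.85, SE 0.0367, adjusted p = 9.77e-29), then Dnali1 (0.56, SE 0.0364), Dnah10 (0.47, SE 0.0387), Dnah6 (0.43, SE 0.0541), Ccdc40 (0.42, SE 0.0312) and Rsph1 (0.42, SE 0.0430). Foxj1 stood at 0.31 (SE 0.0559, adjusted p = 3.58e-05). Without sedentary replicate 6, 23 members were positive and called.

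Sorting the 32 members by their calls, 18 were called with a positive slope on both, among them Spag16, Dnah6, Rsph1, Foxj1, Hydin and Dnali1. Ccdc39, Rsph9 and Dnah9 were called on Ttr and not on Tmem212. Ccdc153, Dnah10, Tekt4, Ccdc40, Dnah1 and Dnah5 were called on Tmem212 and not on Ttr. Dnal1, Dnal4, Rsph3a, Rsph3b and Tekt5 were not called with a positive slope on either. With Tmem212 in the fit, the slope of Spag16 on Ttr was 0.28 (SE 0.0228) and that of Dnah6 0.20 (SE 0.0229), and 20 of 32 members had a positive slope on Ttr that was called. Being called on one gene and not on the other was not tested as a difference.

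**Figure D4:**
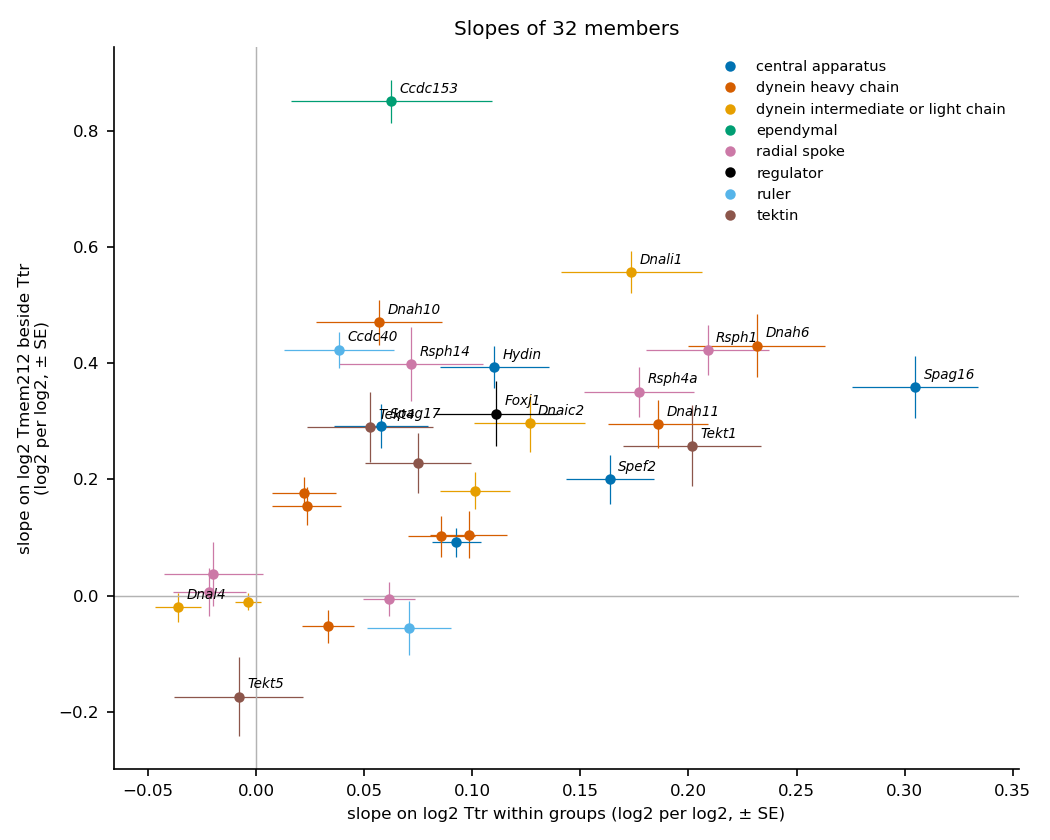
Slope of 32 members on log2 Ttr within groups (horizontal) and on log2 Tmem212 with Ttr in the fit (vertical), in log2 units per log2 unit ± SE, coloured by part of the axoneme. Spag16 lies farthest right at 0.30, Ccdc153 highest at 0.85 with a slope on Ttr of 0.06, and Dnal4 and Tekt5 lie near or under 0 on both axes.

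Other genes of motile cilia, from a list of 112 names of which 90 were tested, were counted by the same rule. On Ttr 71 of 90 were positive and called with a median slope of 0.12, and on Tmem212 78 of 90 with a median of 0.24, none being negative and called. Drc7, a subunit of the nexin-dynein regulatory complex, had the smallest p on Ttr (slope 0.47, SE 0.0271), followed by Iqub at 0.27 (SE 0.0187). Ak7, an adenylate kinase of cilia, had a slope of 0.68 (SE 0.0404) on Tmem212. Of 9 tested regulators of motile ciliogenesis, 6 were positive and called on Ttr and 1 (Ccno) negative. On Tmem212, 6 of the 9 were positive and called and 2 negative, with a median slope of 0.07. Gmnc, which starts the multiciliated programme, had slopes of 0.14 (SE 0.0242) on Ttr and -0.25 (SE 0.0497) on Tmem212. Trp73, a regulator upstream of Foxj1, had slopes of 0.09 (SE 0.0133) on Ttr and 0.07 (SE 0.0308) on Tmem212, and Rfx3 of 0.00 (SE 0.0198) and -0.19 (SE 0.0414).

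Of the 18 genes of the ependyma list, which include Ak7 and Dynlrb2 of cilia as well as genes shared with astrocytes, 12 were positive and called on Ttr with a median slope of 0.07 and 16 on Tmem212 with a median of 0.29. Gja1 and Aqp4, both abundant in astrocytes, were called on neither. Rarres2 had slopes of 0.07 (SE 0.0273) on Ttr and 0.46 (SE 0.0327) on Tmem212. Of the 21 choroid plexus genes, 5 were called positive and 5 negative on Tmem212, with a median slope of -0.06. Markers of meninges moved with Ttr too, 7 of 10 being called positive with a median of 0.09. On Tmem212, 3 of these 10 were called negative and 0 positive. Of 9 genes of hippocampal neurons 7 were called negative and 1 positive on Tmem212, where 2296 of 16081 genes were called negative. These fits include sedentary replicate 6, low in neuron genes and highest in Tmem212, and list counts on Tmem212 without it are not given. The part of meningeal or neuronal content in the members' slopes was not tested.

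The genes whose pattern over the 70 libraries was most like that of the members were sought by Pearson's r with the mean of the 33 members' standardized log2 values. The 10 highest of all genes that are not tested members were Ubxn10 (0.94), Cfap57 (0.93), Dlec1, Maats1, Ccdc146, Lrrc23, Ak7, Lrrc48, Ccdc162 and Catip (0.91). Without sedentary replicate 6 these r lay between 0.90 and 0.93. Libraries share their depth and makeup across genes, and r is given as a description. Between single members, r over 528 pairs had a median of 0.48 and ran from -0.59 to 0.98.

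Against sedentary mice, few members were called in any group. In 14-14-0, 2 of 33 members were called, both higher, Spag16 and Dnah6, where 6.14% of all genes were called in either direction. Spag16 was 2.76-fold higher on the log2(FPKM + 0.1) scale (log2 difference 1.47, SE 0.487, p = 0.0068, adjusted p = 0.741). Dnah6, with 0.264 to 2.40 FPKM (median 0.588 FPKM) in 14-14-0 and 0.0321 to 1.34 FPKM (median 0.311 FPKM) in sedentary libraries, was 1.91-fold higher (log2 difference 0.93, SE 0.433, p = 0.0430, adjusted p = 0.813). Both groups overlapped for both genes. Of the 33 members 27 lay above 0 and 6 below, with a median log2 difference of 0.21 against -0.01 for all genes.

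In 14-0-0, 1 member was called where 9.74% of all genes were. This was Spag16, 2.23-fold higher (log2 difference 1.16, SE 0.493, p = 0.0291, adjusted p = 0.441). The median difference of the members was 0.08 log2 units, and 18 lay above 0. Foxj1 differed by -0.04 log2 units in 14-0-0 (SE 0.344, p = 0.916) and by 0.41 in 14-14-0 (SE 0.353, p = 0.260). With Ttr as a covariate, the difference of Spag16 was 0.32 log2 units in 14-14-0 (p = 0.360) and -0.21 in 14-0-0 (p = 0.591), and that of Dnah6 was 0.11 in 14-14-0 (p = 0.781). All 22 genes of the choroid plexus list were called higher in both comparisons, with a median of 2.37 log2 units. By cohort, 3 of 22 were called in cohort 1 and 19 in cohort 2 for 14-0-0, and 21 in cohort 1 and 1 in cohort 2 for 14-14-0. Of all genes, 7.64% and 5.49% were called for 14-0-0 in cohorts 1 and 2, and 2.58% for 14-14-0 in cohort 2. Its summed level had medians of 2431 FPKM in 14-0-0 and 2248 FPKM in 14-14-0, and in sedentary libraries 134 FPKM (range 67.4 to 436 FPKM), and none of the 22 genes was at 0 in any sedentary library. Meninges markers were called higher in 6 of 10 in 14-0-0 and 7 of 10 in 14-14-0. In home cage, 10 of the 22 choroid plexus genes and 6 of the 10 meninges genes were called higher as well.

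No member was called in 14-7-0, 14-7-2, 0-0-2 or home cage by limma, where 3.48%, 4.64%, 2.72% and 3.06% of all genes were called. Cyber-T on FPKM called 1, Tekt5 in 14-7-2, which was lower, where 263 of 16083 genes were called lower, and 0 in the other 3. No adjusted p of a member was under 0.05 in limma. Medians of the members were -0.11 log2 units in 14-7-0 with 24 of 33 below 0, -0.11 in 14-7-2 with 26 below 0, 0.01 in 0-0-2 and -0.01 in home cage. Foxj1 differed from sedentary by -0.23 log2 units in 14-7-0 (SE 0.338, p = 0.4998), -0.43 in 14-7-2 (SE 0.349, p = 0.232), -0.24 in 0-0-2 (SE 0.333, p = 0.471) and -0.04 in home cage (SE 0.369, p = 0.912). The 6 comparisons share the same 10 sedentary libraries.

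Counts of called members in 14-14-0, 14-0-0 and 0-0-2 changed when sedentary replicate 6 was left out. In that library 26 of 33 members lay above every other sedentary library and 1, Dnah9, lay below, with a median ratio of 3.98 to the median of the other 9. Ratios ran up to 6.90 for Ccdc153 and 6.83 for Dnah6. Without it, 13 members were higher in 14-14-0, where 5.96% of all genes were called higher. These were Spag16, Dnah6, Dnaic2, Rsph4a, Tekt1, Dnah11, Foxj1, Dnaic1, Dnali1, Rsph1, Spef2, Spag6 and Rsph9. Of these, Foxj1 was 1.58-fold higher (log2 difference 0.66, SE 0.274, p = 0.0254, adjusted p = 0.551) and Rsph1 1.88-fold (log2 difference 0.91, SE 0.389, p = 0.0297, adjusted p = 0.561). The 9 other sedentary libraries had a median of 3.30 FPKM of Foxj1 and a highest value of 4.88 FPKM. In 14-0-0, 4 members were then higher (Spag16, Tekt1, Spag6 and Rsph9), where 7.68% of all genes were. In 0-0-2 it was 1 (Rsph9), where 1.62% of all genes were higher, while 14-7-0, 14-7-2 and home cage still had 0 called by limma.

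**Figure D5:**
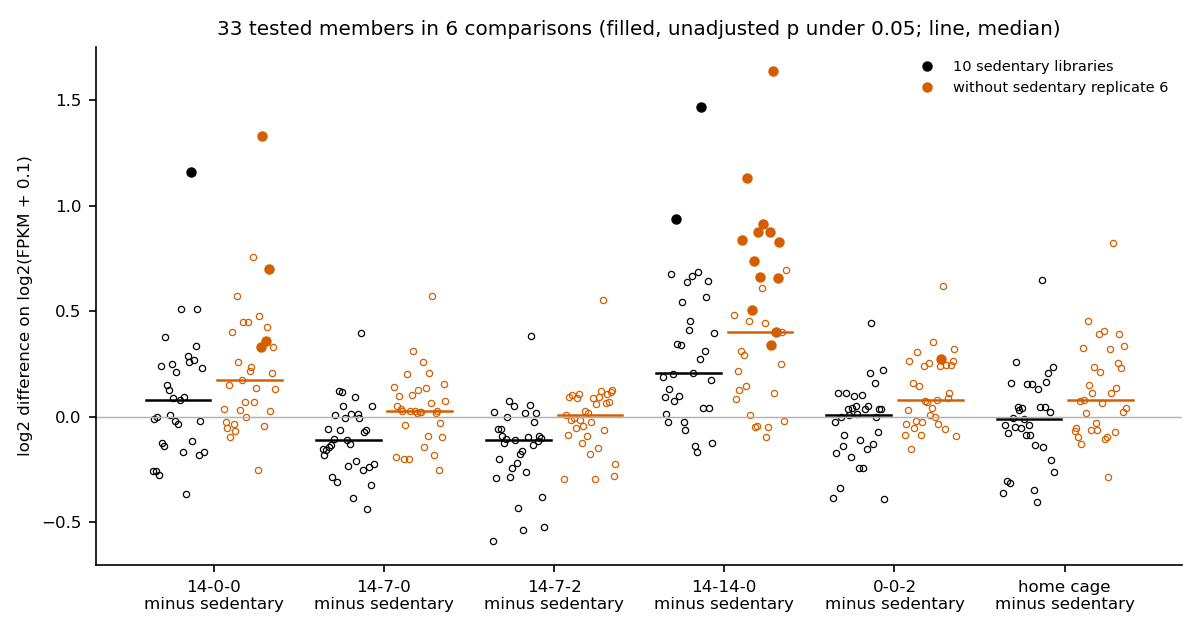
Difference of each of 33 members from sedentary in 6 comparisons, on log2(FPKM + 0.1), with all 10 sedentary libraries (black) and without replicate 6 (orange; filled, unadjusted p under 0.05; line, median). In 14-14-0 the median moves from 0.21 to 0.40 and called members from 2 to 13, and the medians of 14-7-0 and 14-7-2 move from -0.11 to 0.03 and 0.01.

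The difference from sedentary was also set side by side between harvest cohorts. The median over members of cohort 2 minus cohort 1 was -0.89 log2 units for 14-14-0, -0.62 for home cage, -0.54 for 0-0-2, -0.47 for 14-7-2, -0.42 for 14-0-0 and -0.36 for 14-7-0, with 26 to 31 of 33 members below 0. The sedentary libraries of each cohort are shared by these 6 values. For 14-14-0 in cohort 1 alone, with 5 against 5 libraries, 12 members were higher, where 4.48% of all genes were called higher, and the median was 0.67 log2 units. In cohort 2, which holds sedentary replicate 6, 0 members were called by limma and the median was -0.09. Both 14-14-0 libraries with the most Ttr, replicates 1 and 3, belong to cohort 1. For 14-14-0 the difference between cohorts passed an unadjusted p under 0.05 in 3 members, where 2.45% of all genes did, Dnali1 (-1.84, SE 0.766, p = 0.0270), Foxj1 (-1.53, SE 0.651, p = 0.0300) and Rsph1 (-1.75, SE 0.824, p = 0.0472), each with an adjusted p of 0.998. For Spag16 it was -1.67 (p = 0.0952) and for Dnah6 -1.50 (p = 0.0898). It was passed by 3 members in 0-0-2 (1.97% of all genes), 1 in 14-0-0 (2.9%), 1 in home cage (0.852%), 0 in 14-7-0 (0.815%) and 0 in 14-7-2 (2.92%). Without 14-14-0 replicate 3, Spag16 alone was called (higher) against the 10 sedentary libraries, where 492 of 16083 genes were called higher. Likewise it alone was called without replicates 1 and 3, where 289 genes were called higher. Over all 7 groups, cohort 2 differed from cohort 1 in 1 member, Dnal1, which fell by 0.08 log2 units (SE 0.0304, p = 0.0138, adjusted p = 0.305), where 10.4% of all genes were called.

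Of the other motile cilium genes in 14-14-0, 9 of 90 were higher, where 4.41% of all genes were, and 1 lower, with a median of 0.34 log2 units. Drc7 differed by 1.69 log2 units (p = 0.0214), Pifo by 1.31 (p = 0.0404), Wdr63 by 1.17 (p = 0.0323) and Cfap53 by 0.94 (p = 0.0175), and Gas8 fell by 0.20 (p = 0.0356). In 14-0-0, 5 of 90 were higher, where 6.78% of all genes were, among them Drc7 at 1.51 (p = 0.0328) and Pifo at 1.18 (p = 0.0401). Without sedentary replicate 6 the counts were 33 of 90 in 14-14-0 and 23 of 90 in 14-0-0, all higher, beside 5.96% and 7.68% of all genes. With Ttr as a covariate they were 0 higher in both, with 1 lower in 14-14-0 and 7 lower in 14-0-0, where 1.37% and 5.25% of all genes were called in either direction. Of the regulators, Gmnc alone was called, in 14-0-0 (0.63 log2 units, p = 0.0445), and of the ependyma genes Mia in 14-14-0 (1.09, p = 0.0359) and Aqp4 in home cage (0.17, p = 0.0422).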

How the data were processed

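RNA of dorsal hippocampus was sequenced by the authors from poly-A libraries as single reads of 50 bases. Per the paper's methods, reads were aligned with ELAND v2e and Bowtie, kept when unique with at most 2 mismatches, and taken through the Tuxedo protocol. The submitters' processing notes name Cuffnorm and mm10. The deposited values are FPKM for each gene and library. Depth cannot be read from FPKM, counting intervals are therefore left out, and a 0 can be a failed estimate.

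Members and gene lists were chosen with earlier results of these data known. Tests used log2(FPKM + 0.1) of the 16083 genes whose mean reached 0.1 FPKM. Groups were compared with sedentary by limma 3.58.1 (R 4.3.3, moderated, trend, two-sided, 20 libraries, no covariates). Slopes used 70 libraries with group as a factor. As in the study's methods, calls use unadjusted p. Its Cyber-T test was run as an alternative. In data simulated for 14-0-0 against sedentary on 16083 genes, 84 of 100 genes changed by 0.5 and 96 of 100 changed by 1 log2 unit were called, and 4.92% of unchanged genes. The changed genes were drawn at random from all genes tested, with independent normal noise. These rates therefore do not give the chance of calling a changed member. In 0-0-2 against sedentary the SE was 0.333 log2 units for Foxj1 and 0.549 for Tmem212, so a change of 0.5 could go uncalled. Promoter windows came from RefSeq and gene positions from GENCODE. Named genes were the members, the called or most alike genes and the genes of small list counts. Genes of the ependyma and choroid plexus lists with slopes or shares in the text (such as Rarres2, Gja1, Aqp1 and Folr1) and the regulators Trp73 and Rfx3 were chosen after their values were seen. Tables and figures used Python 3.11.15, pandas 2.3.3, numpy 2.4.6 and matplotlib 3.10.9.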

Additional observations from a re-analysis of the deposited data

Results flagged for a closer look

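Libraries far from the rest of their group were looked for in Foxj1, Ccdc153, Tmem212, Spag16, Dnah6, Rsph1 and Ttr, by Dixon's criterion for 10 samples. In the 49 groups examined, 19 were found. For normally distributed values chance flags about 1 group in 20, or 2.45 of 49. The criterion was applied here to FPKM without a log scale, which are skewed, so that expected number does not hold for them. The genes are not independent, since 1 library can stand apart in several of them.

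Sedentary replicate 6 stood apart in 4 genes, with 18.5 FPKM of Foxj1 (next highest 4.88 FPKM), 24.9 FPKM of Ccdc153 (7.40), 30.4 FPKM of Tmem212 (11.7) and 17.6 FPKM of Rsph1 (5.58). In 0-0-2 replicate 4, Foxj1 was at 7.06 FPKM (3.79), Ccdc153 at 8.80 FPKM (4.58) and Tmem212 at 12.4 FPKM (4.04), with 89.6 FPKM of Ttr. In 14-14-0 replicate 3, Ccdc153 was at 17.3 FPKM (7.48) and Tmem212 at 21.9 FPKM (11.995).

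Other libraries stood apart in Ttr and, in some, with Spag16 or Foxj1. These were home cage replicate 3 (Ttr 15187 FPKM, next highest 3687, and Spag16 2.59 FPKM, next highest 1.47), 0-0-2 replicate 9 (Ttr 10651 FPKM and Spag16 3.04 FPKM) and 14-7-2 replicate 9 (Ttr 2198 FPKM and Spag16 2.21 FPKM). In 14-0-0 replicate 7 Ttr was at 15643 FPKM and Foxj1 at 9.55 FPKM (next highest 4.79). Ttr alone stood apart in 14-7-0 replicate 7 at 2085 FPKM and in sedentary replicate 3 at 344 FPKM.

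The difference from sedentary differed between harvest cohorts (cohort 2 minus cohort 1, limma, unadjusted p under 0.05, smallest adjusted p 0.960) in 8 cases over 33 members and 6 comparisons. In 14-14-0 these were Dnali1 (-1.84 log2 units), Foxj1 (-1.53) and Rsph1 (-1.75). In 0-0-2 they were Dnah5 (-0.72), Dnah10 (-1.38) and Rsph14 (-1.48), in 14-0-0 Dnah5 (-0.73) and in home cage Rsph1 (-1.59). All were lower in cohort 2, which holds sedentary replicate 6, and its part in them was not tested.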

How the results depend on the processing

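Counts are of members called at an unadjusted p under 0.05 by the named fit, with the share of all genes called in that fit in brackets for 14-14-0 and 14-0-0. For 14-14-0 (2 in the report) they were 4 by Cyber-T on FPKM (5.14%), 5 in a joint fit of 7 groups (6.63%), 5 with a replicate block (7.87%), 0 with Ttr as a covariate (1.37%), 1 with a pseudocount of 1 (6.04%), 1 with no filter (5.81%), 0 of 17 members with a minimum mean of 1 FPKM (4.95%), 12 in harvest cohort 1 and 0 in cohort 2 (2.58%). Leaving out libraries gave 13 without sedentary replicate 6 and 1 without 14-14-0 replicate 3 or replicates 1 and 3, both chosen after seeing the data. Of 16083 genes, 958, 492 and 289 were called higher in these fits. For 14-0-0 (1 in the report) they were 2 in cohort 1 (7.64%), 0 in cohort 2 (5.49%), 0 with a minimum mean of 1 FPKM (9.15%), 2 with no filter (8.7%), 2 with a replicate block (14.2%) and 4 without sedentary replicate 6. Where the report has 0, the brackets hold the number of all genes called in the same direction in that fit. With no filter, 14-7-0 had 1 and home cage 1, both lower (420 and 273 of 20779 genes). In 14-7-2, Tekt5 was lower by Cyber-T (263 of 16083) and in cohort 1 (180 of 16083). Cohort 2 had 3 lower in 14-7-2, Ccdc153, Foxj1 and Tmem212 (375 of 16083). In 0-0-2, Spag6 was higher in cohort 1 (171 of 16083) and Dnah10 lower in cohort 2 (334 of 16083). Without sedentary replicate 6, 0-0-2 had 1 higher (260 of 16083). On Ttr 11 of the 17 members with a mean of at least 1 FPKM were called, against 22 of 33. Spag16 in 14-0-0 reversed with Ttr as a covariate, to -0.21, and the 1 member then called there was Dnah2, lower. Spag16 in 14-14-0 stayed called in 11 alternatives and was not in 2, and Dnah6 in 7 and not in 6 (among them a pseudocount of 1, p = 0.0668). The cause of these shifts was not tested, apart from the smaller number of members or libraries in some fits. Median ratio scaling, harvest cohort as a covariate and leaving out 14-7-0 replicate 4 kept each count within 1.5 times. The share at zero Ttr had medians of 93.3% without the 2 libraries of highest Ttr and 90.8% without sedentary replicate 6 and 14-7-0 replicate 4. Replicate numbers are not stated to pair the samples, so the block is given only here. The median correlation of same-numbered deviations with sedentary was 0.0874, with 27 of 60 pairs over 0.1, against -0.025 for other numbers. Of 60 libraries, 12 correlated best with their own number. These values do not settle whether numbers pair samples, since same-numbered libraries also share a harvest cohort. Since FPKM carry no counts, the precision of the low members is unknown, in 14-7-0 replicate 4 above all.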

Other observations

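The sum over 6 thalamus genes was high in the libraries with most Tmem212 in 3 groups, with 315 FPKM in sedentary replicate 6, 202 FPKM in 14-14-0 replicate 3 and 171 FPKM in 0-0-2 replicate 4, against a median of 33.4 FPKM over all libraries. In 14-7-2 the highest sum, 117 FPKM, was in replicate 3. The genes of the list did not move alike. Prkcd was at 90.9, 62.5 and 74.2 FPKM in the first 3 libraries, against a median of 15.2 FPKM over all libraries. Tcf7l2 was at 2.04, 1.27 and 1.26 FPKM there (median 1.11 FPKM), and was highest in 14-7-2 replicate 3 at 10.9 FPKM. The other genes of the list are not given singly, and whether these libraries hold thalamus was not tested. Within groups, 3 of these 6 genes had a positive and called slope on Tmem212 with Ttr in the fit and 1 a negative one, with a median slope of 0.22 log2 units per log2 unit. On Ttr 1 of 6 was called.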
